A study of Mus musculus with 4 samples.

Results

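Small Cajal body RNAs were taken here as every gene of the mouse annotation with the biotype scaRNA and a symbol that does not start with Snord. The rule uses annotation and symbol and no measured value, and it found 51 of the 47069 genes in the count table. They carry 46 distinct symbols, since 5 symbols each stand for a pair of gene IDs. A Scarna symbol is held by 7 of them, a predicted-gene symbol (Gm) by 43, and 1 is listed as Mir1839.

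The samples came from C57BL/6 mice carrying Lewis lung carcinoma, an established mouse lung carcinoma line, under the skin for 3 weeks. The first group of 2 libraries held RNA of primary tumour, and the other group of 2 held RNA of exosomes, the small vesicles that cells release. The exosomes came from pieces of such tumours kept for 12 h without serum; the medium was passed through a 0.2 µm filter and, for RNA, vesicles were precipitated with a reagent instead of ultracentrifuged. Both groups came from the same inoculated line, the animals' age is not given in the labels, and the labels do not say whether replicates came from separate animals, so p-values measure the spread between these libraries, which may be technical.

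Small Cajal body RNAs are noncoding guide RNAs of the cell nucleus. In Cajal bodies, which are nuclear sites where small nuclear ribonucleoproteins mature, they pair with spliceosomal small nuclear RNAs and direct chemical changes of single bases or sugars. Guides with boxes C and D direct ribose methylation, guides with boxes H and ACA direct pseudouridylation, and composite guides hold both kinds of element. Most are cut from the introns of host genes, and a short CAB box in the H/ACA kind is bound by the protein encoded by Wrap53, which brings the RNA to the Cajal body.

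The sequences below are those on which the results turn, read from the GENCODE M21 transcripts (build GRCm38). In the first 5, the capitals mark the ACA near the 3′ end by which the H/ACA kind is known. Gm24289 (chr9:64295931-64296065, plus strand, intron of Tipin) and Gm23751 (chr6:125121724-125121859, plus strand, intron of Chd4) had the highest signed log2 differences, exosome minus tumour, among tested members. Gm22728 (chr5:92056064-92056192, minus strand, intron of G3bp2) and Gm25492 (chr5:135053988-135054116, minus strand, intron of Bud23) were the 2 with the most counts. Gm23505 (chr2:51493653-51493782, minus strand, outside any same-strand host) is a relative of Gm24289, 96.2% identical to it over 104 bases.
Gm24289: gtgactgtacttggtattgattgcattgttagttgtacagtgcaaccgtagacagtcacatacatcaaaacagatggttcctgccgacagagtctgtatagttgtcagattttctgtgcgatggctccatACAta
Gm23505: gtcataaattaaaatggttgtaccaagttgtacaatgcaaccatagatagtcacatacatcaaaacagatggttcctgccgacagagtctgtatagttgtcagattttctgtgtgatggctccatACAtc
Gm23751: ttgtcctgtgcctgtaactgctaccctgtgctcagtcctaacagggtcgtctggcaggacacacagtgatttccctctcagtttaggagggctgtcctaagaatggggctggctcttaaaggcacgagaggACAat
Gm22728: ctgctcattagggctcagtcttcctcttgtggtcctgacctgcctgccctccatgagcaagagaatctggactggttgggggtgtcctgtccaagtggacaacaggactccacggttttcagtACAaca
Gm25492: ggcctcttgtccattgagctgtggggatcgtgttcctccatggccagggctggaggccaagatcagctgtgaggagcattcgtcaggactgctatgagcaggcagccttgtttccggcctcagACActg

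Further sets are shown because their members differ from each other in the counts. Scarna3a (chr1:159340283-159340422, plus strand, intron of Cop1) and Scarna3b (chr12:80391613-80391751, minus strand, intron of Dcaf5) are H/ACA guides that are 86.2% identical over 138 bases. Gm24644 (chr2:104040669-104040807, plus strand, intron of Fbxo3) and Gm22442 (chr11:69350518-69350661, minus strand, intron of Chd3) are 74.3% identical over 136 bases. The capitals again mark the ACA.
Scarna3a: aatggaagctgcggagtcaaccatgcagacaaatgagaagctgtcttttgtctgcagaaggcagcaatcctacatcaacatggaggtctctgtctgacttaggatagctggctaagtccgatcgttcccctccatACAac
Scarna3b: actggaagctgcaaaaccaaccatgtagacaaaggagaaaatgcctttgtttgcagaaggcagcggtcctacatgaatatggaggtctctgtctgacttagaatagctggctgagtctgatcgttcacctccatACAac
Gm24644: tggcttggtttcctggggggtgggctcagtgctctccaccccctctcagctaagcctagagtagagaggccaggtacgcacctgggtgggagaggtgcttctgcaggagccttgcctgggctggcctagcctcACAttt
Gm22442: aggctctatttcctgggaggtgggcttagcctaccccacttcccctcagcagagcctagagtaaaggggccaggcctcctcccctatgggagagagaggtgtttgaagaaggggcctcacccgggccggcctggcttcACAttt

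Gm25395 (chr1:87776938-87777209) and Scarna6 (chr1:87784556-87784820), both on the plus strand, lie in introns of the same host gene, Atg16l1, an autophagy gene. Scarna6 is a composite guide. The capitals mark box C (TGATGA) near the 5′ end and box D (CTGA) near the 3′ end, and the longest shared stretch was 28 bases at 92.9% identity.
Gm25395: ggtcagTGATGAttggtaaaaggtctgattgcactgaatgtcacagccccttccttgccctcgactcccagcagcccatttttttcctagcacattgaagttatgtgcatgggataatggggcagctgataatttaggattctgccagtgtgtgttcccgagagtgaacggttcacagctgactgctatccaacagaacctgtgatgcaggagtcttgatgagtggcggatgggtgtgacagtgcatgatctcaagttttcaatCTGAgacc
Scarna6: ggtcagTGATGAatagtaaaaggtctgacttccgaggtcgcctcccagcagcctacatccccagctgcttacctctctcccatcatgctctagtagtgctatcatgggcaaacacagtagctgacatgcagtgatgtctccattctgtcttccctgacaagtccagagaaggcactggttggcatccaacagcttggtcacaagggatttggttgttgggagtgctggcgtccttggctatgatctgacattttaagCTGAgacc

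As a class, small Cajal body RNAs took a share of all gene counts that overlapped between exosomes and tumour, while over other denominators tumour was higher. Their counts summed to 222 and 326 in the exosome libraries and to 11648 and 8917 in the tumour libraries. That was 0.0726% (exact 95% interval 0.0634 to 0.0828) and 0.150% (0.134 to 0.167) of all gene counts in exosomes, against 0.0801% (0.0786 to 0.0816) and 0.0822% (0.0805 to 0.0839) in tumour. The group means were 0.111% ± 0.0548 (SD, n = 2) and 0.0811% ± 0.00148 (SD, n = 2). Both tumour values lay between the 2 exosome values, so over all gene counts the groups overlapped. Without small nucleolar RNA genes in the denominator, the shares were 0.0734% and 0.152% in exosomes and 1.22% and 1.44% in tumour. Over protein-coding counts they were 2.57% and 4.56% in exosomes and 5.16% and 5.21% in tumour. The protein-coding gene Snrpb alone held 146964 and 114981 of the 225850 and 171142 protein-coding counts in tumour. In exosomes it held 16 and 14 of 8637 and 7155. Shares without Snrpb were not computed. With both of these denominators the groups separated and tumour was higher. With 2 libraries against 2, an exact permutation test cannot give a two-sided p below 0.333.

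Related guides and the RNAs they act on did not share this position. Box C/D small nucleolar RNAs with a Snord symbol, the ribosomal RNA methylation guides, took 0.397% ± 0.0114 (SD, n = 2) of exosome counts and 51.8% ± 0.952 (SD, n = 2) of tumour counts. Box H/ACA small nucleolar RNAs with a Snora symbol took 0.264% ± 0.0215 in exosomes and 0.385% ± 0.00992 in tumour (SD, n = 2). These 2 symbols do not cover all small nucleolar RNA genes. Outside all such genes lay 955823 of 14543691 and 619846 of 10849811 tumour counts. In exosomes 302512 of 305751 and 215069 of 217201 counts lay outside them. Genes of the small nuclear RNA biotype, which holds the targets of the Cajal body guides and their many copies, took 49.9% ± 1.35 in exosomes and 0.487% ± 0.0365 in tumour (SD, n = 2). For these 3 classes the groups did not overlap.

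**Figure D1:**
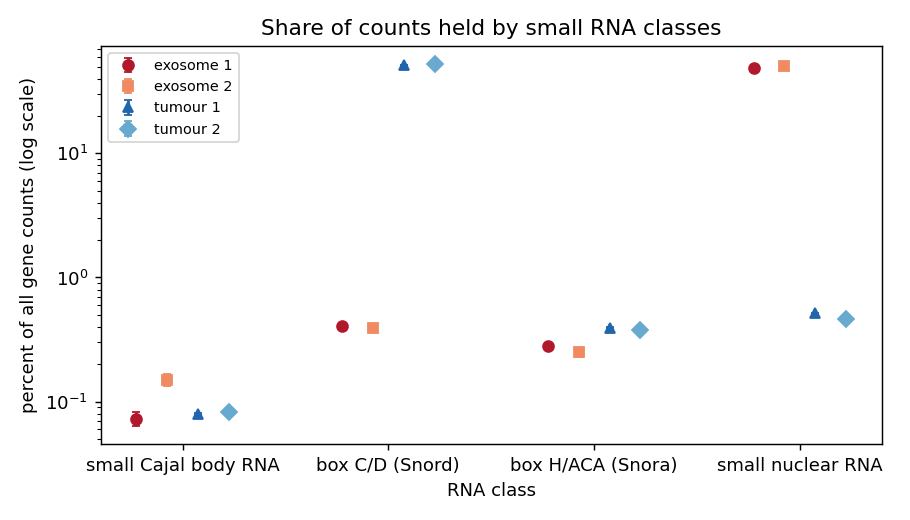
Share of all gene counts (percent, log scale) held by 4 classes of small RNA in each library, with exact 95% intervals that cover counting error only. The tumour points for small Cajal body RNAs (0.0801% and 0.0822%) sit between the exosome points (0.0726% and 0.150%), while the other 3 classes separate by group.

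At least 1 count was found for 19 of the 51 genes, including all 7 with a Scarna symbol, 12 of the 43 with a Gm symbol and not Mir1839. The other 32 had none in any library, which allows up to 0.000981% and 0.00138% of counts each in the exosome libraries and up to 2.06e-05% and 2.77e-05% in the tumour libraries. Of the 19, 13 had a count in both exosome libraries and 17 in both tumour libraries. The filter on low counts kept 16: 11 passed it in both groups, 4 through tumour alone (Scarna2, Scarna6, Gm22009 and Gm22442) and 1, Gm22767, through exosomes alone. The filter asked for 1.79 CPM (counts scaled to a library of 1000000 gene counts) in at least 2 libraries. In exosomes 1 count was already 3.27 or 4.60 CPM, while in tumour it was 0.0688 or 0.0922 CPM. So 1 count in each exosome library met this cutoff, as for Gm22767, and passing in exosomes shows no more than that. The same filter chose the 1442 tested genes with which calls are compared below. A gene that passes through 1 group had to clear the filter there, so the counts of calls that follow are descriptions.

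Relative to the bulk of tested genes (TMM scaling), 1 of the 16 tested was higher in exosomes, 10 were lower and 5 were not called in edgeR's quasi-likelihood test (adjusted p threshold 0.05). Over all 1442 tested genes 16.0% were higher and 22.1% lower. Relative to the library totals, 6 of the 16 were higher, 5 lower and 5 not called, where 63.8% of all tested genes were higher and 11.5% lower. The median log2 difference, exosome minus tumour, was -2.54 over the 16 and 0.02 over all tested genes with TMM scaling, and 0.24 and 2.75 with library totals. The median shift of a gene between the scalings was 2.76 log2 units, with a far smaller one for genes with no exosome count (Scarna2 -10.40 and -10.23, Gm22009 -8.40 and -8.23), and Gm22728, Gm25395, Scarna3a, Scarna8, Scarna13, Scarna3b and Gm22767 had fitted differences of opposite sign in them. With TMM scaling, ranges of scaled counts overlapped between the groups for Scarna8 and Scarna3b. With library totals they overlapped for Gm22728, Gm25395, Scarna3a, Scarna6 and Gm22442. The share of all tested genes that overlapped is not given here, so these names describe single members and not the class.

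**Figure D2:**
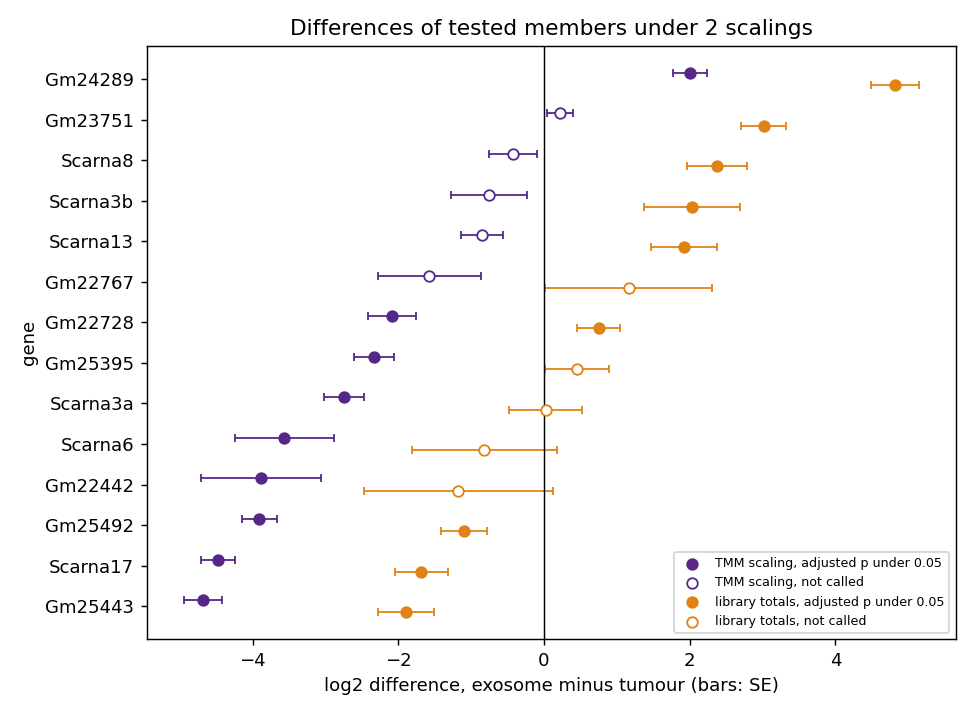
Log2 difference, exosome minus tumour, with SE, of the 14 tested small Cajal body RNAs that had a count in an exosome library, under TMM scaling (purple) and library totals (orange); filled points have an edgeR adjusted p under 0.05. Gm24289 and Gm23751 lie above 0 and Gm25492, Scarna17, Gm25443, Scarna6 and Gm22442 lie below 0 under both, while 7 genes change side.

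Gm24289 was the one tested member called higher in exosomes under both scalings. It had 56 and 71 counts in exosomes and 137 and 90 in tumour, although the tumour libraries were 48.6 times deeper in all. As CPM (counts scaled to a library of 1000000 gene counts) this was 183 and 327 in exosomes and 9.42 and 8.30 in tumour, with no overlap. The log2 difference was 2.00 (SE 0.23, edgeR adjusted p = 0.000195) with TMM scaling and 4.82 (SE 0.33, edgeR adjusted p = 3.74e-18) with library totals. With a tumour library left out and the filter redrawn, which tests only 394 or 397 genes, the TMM difference was -0.17 without tumour replicate 1 and -0.29 without tumour replicate 2 (edgeR adjusted p = 0.720 and 0.547). With the 1442 genes kept it was 2.06 and 1.96 (edgeR adjusted p = 6.17e-06 and 6.99e-05), in fits chosen after seeing the data. Its relative Gm23505, printed above, had 2 counts in exosome replicate 2 and none elsewhere, so reads of the pair may have been divided between them.

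Gm23751 had the next highest signed log2 difference, exosome minus tumour, among tested members under both scalings, though with TMM scaling it was close to 0. It had 44 and 39 counts in exosomes and 287 and 216 in tumour, which is 144 and 180 CPM against 19.7 and 19.9 CPM. The exosome values stood above the tumour values with library totals (log2 difference 3.01, SE 0.31, edgeR adjusted p = 6.65e-12). Relative to the bulk of genes it was not called (0.22, SE 0.18, edgeR adjusted p = 0.415). The TMM value was 0.67 with at least 10 counts in 2 libraries, -0.96 with no filter, and -2.06 and -1.98 without tumour replicate 1 and 2 in turn (edgeR adjusted p = 0.0187, 0.00276, 0.00312 and 0.00343). With the 1442 genes kept it was 0.17 and 0.27 without tumour replicate 1 and 2 in turn (edgeR adjusted p = 0.810 and 0.736).

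The H/ACA guides with a Scarna symbol had fewer exosome counts than Gm24289 and Gm23751. Scarna8 had 11 and 20 counts in exosomes and 185 and 115 in tumour, Scarna13 had 12 and 8 against 140 and 114, and Scarna3b had 2 and 7 against 62 and 46. None of these 3 was called with TMM scaling, where the log2 differences were -0.43 (SE 0.33), -0.85 (SE 0.29) and -0.75 (SE 0.52), with edgeR adjusted p of 0.396, 0.0540 and 0.342. With library totals all 3 were called higher, by 2.37 (SE 0.41), 1.92 (SE 0.45) and 2.03 (SE 0.66), with edgeR adjusted p of 2.56e-06, 0.000238 and 0.00612. Without exosome replicate 2, the TMM values of Scarna8 and Scarna3b were -1.002 and -1.99 and both were called lower (edgeR adjusted p = 0.0398 and 0.0487). Scarna8 was also called lower without tumour replicate 1 (-2.55, edgeR adjusted p = 0.0122) and without tumour replicate 2 (-2.74, edgeR adjusted p = 0.00670), as was Scarna13 (-3.19 and -2.99, edgeR adjusted p = 0.00307 and 0.00364). With no filter Scarna8, Scarna13 and Scarna3b were called lower (-1.60, -2.03 and -1.92, edgeR adjusted p = 1.88e-05, 6.16e-07 and 0.00242), and Scarna13 was too with DESeq2's size factors (-0.96, edgeR adjusted p = 0.0376). Gm22767, an ACA-bearing gene in an intron of Ppp1r8, had 1 and 1 counts in exosomes and 24 and 19 in tumour, and was not called under either scaling, though with no filter it was called lower (-2.71, edgeR adjusted p = 0.0269).

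Scarna3a, the close relative of Scarna3b, had 6 and 5 counts in exosomes and 310 and 218 in tumour. Its CPM values differed little across libraries, at 19.6 and 23.0 in exosomes and 21.3 and 20.1 in tumour, and the log2 difference was 0.02 with library totals (SE 0.50, edgeR adjusted p = 0.969). Relative to the bulk of genes it was lower in exosomes, at -2.75 (SE 0.28, edgeR adjusted p = 9.43e-05). Tumour held 5 and 4.74 Scarna3a counts per Scarna3b count, and exosomes 3 and 0.714. The exosome ratios rest on fewer than 10 counts of each gene in each library, and the difference between the relatives was not tested.

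The members with the most tumour counts were lower in exosomes with TMM scaling. Gm25492 had 20 and 32 counts in exosomes and 3169 and 2376 in tumour, a log2 difference of -3.91 (SE 0.24, edgeR adjusted p = 4.18e-06), and it was lower with library totals too (-1.10, SE 0.31, edgeR adjusted p = 0.00195) but not called by limma on log2(FPKM + 1) (-1.15, limma adjusted p = 0.0912). Gm22728 had 43 and 92 counts in exosomes and 2290 and 1813 in tumour. It was lower with TMM scaling (-2.09, SE 0.33, edgeR adjusted p = 0.00126) and higher with library totals (0.75, SE 0.30, edgeR adjusted p = 0.0215), and was not called once tumour counts were thinned to the mean exosome total (-0.46, edgeR adjusted p = 0.369). Its exosome levels, 141 and 424 CPM, lay on either side of the tumour levels of 157 and 167, so with library totals the groups overlapped and exosome replicate 2 alone was above tumour. Its TMM value was -1.503 and -2.84 without exosome replicate 1 and 2 in turn, and -4.40 and -4.25 without tumour replicate 1 and 2, and it was called lower each time. Without tumour replicate 1 and 2 in turn, Gm25492 was -6.18 and -6.11.

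Scarna17, a box C/D guide on chromosome 18, and Gm25443 on chromosome 19 are identical over 70 bases of their 79 and 76. Scarna17 had 9 and 14 counts in exosomes and 2076 and 1563 in tumour, and Gm25443 had 7 and 13 against 2061 and 1592. The ratio of the copies was between 0.982 and 1.29 in every library, and how the authors assigned reads that match both is not given in the sources used here, so the copies cannot be told apart. The log2 differences were -4.48 (SE 0.23, edgeR adjusted p = 1.55e-06) and -4.69 (SE 0.26, edgeR adjusted p = 2.18e-06) with TMM scaling. With library totals they were -1.68 (SE 0.37, edgeR adjusted p = 0.000101) and -1.89 (SE 0.38, edgeR adjusted p = 3.33e-05). Without tumour replicate 1 and 2 in turn, the TMM values were -6.75 and -6.67 for Scarna17 and -6.98 and -6.86 for Gm25443. Among members with a count in both exosome libraries, these 2 and Gm25492 were lower under both scalings.

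The pair in the introns of Atg16l1 was also lower with TMM scaling. Gm25395 had 7 and 11 counts in exosomes and 376 and 271 in tumour (log2 difference -2.33, SE 0.28, edgeR adjusted p = 0.000275), and Scarna6 had 0 and 2 against 100 and 73 (-3.57, SE 0.68, edgeR adjusted p = 0.00378). With library totals neither was called (0.45, SE 0.44, and -0.82, SE 0.996, with edgeR adjusted p of 0.331 and 0.437). Without tumour replicate 1 and 2 in turn Gm25395 was -4.57 and -4.55, and Scarna6 had no value. Scarna6 was -2.43 without exosome replicate 1 and -8.96 without exosome replicate 2, which leaves no exosome count, and it was called lower both times. In tumour Gm25395 had 3.76 and 3.71 counts for each count of Scarna6.

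Among the 3 members with counts in tumour only, Scarna2 and Gm22009 were tested. Scarna2, a box C/D guide on chromosome 3, had 297 and 282 counts in tumour. Against a floor of 3 counts per exosome library it was at least 13.9-fold lower in exosomes with TMM scaling and at least 1.96-fold lower with library totals (edgeR adjusted p = 0.000137 and 0.000149). GENCODE gives it 414 bases and RefSeq (GRCm38.p6) 61, and which part the counts came from was not tested. Gm22009, in an intron of Kpna4, had 69 and 75 counts in tumour which put exosomes at least 3.49-fold lower on the TMM scale (edgeR adjusted p = 0.00436). With library totals its tumour level lay under the exosome floor, so no fold is given, although the fit called it lower (edgeR adjusted p = 0.0343).

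Gm24644 showed the reverse. It had 4 and 8 counts in exosomes and none in the deeper tumour libraries. Against a floor of 3 counts per tumour library, its exosome mean was 14.2-fold higher with TMM scaling and 103-fold higher with library totals. These folds leave out the counting error of the few exosome counts, so they are no bounds. Its 12 counts in all fell under the filter. In the fit with no filter it was called higher (fitted log2 difference 6.65, SE 1.29, edgeR adjusted p = 7.95e-06), a value that depends on the prior count and is no bound, and Gm23119 and Gm23505 were not called. Gm22442, its relative printed above, had 0 and 1 counts in exosomes and 59 and 51 in tumour, and was lower with TMM scaling (log2 difference -3.88, SE 0.82, edgeR adjusted p = 0.00650) and not called with library totals (-1.18, SE 1.30, edgeR adjusted p = 0.393). It was -2.77 without exosome replicate 1 and -8.32 without exosome replicate 2, which holds its 1 exosome count, and was called lower both times. A near-identical copy of Gm22442, Gm23386 (95.1% identity over 143 bases), had no count. The last member under the filter, Gm23119 on chromosome 18, had 6 and 3 counts in tumour and none in exosomes.

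**Figure D3:**
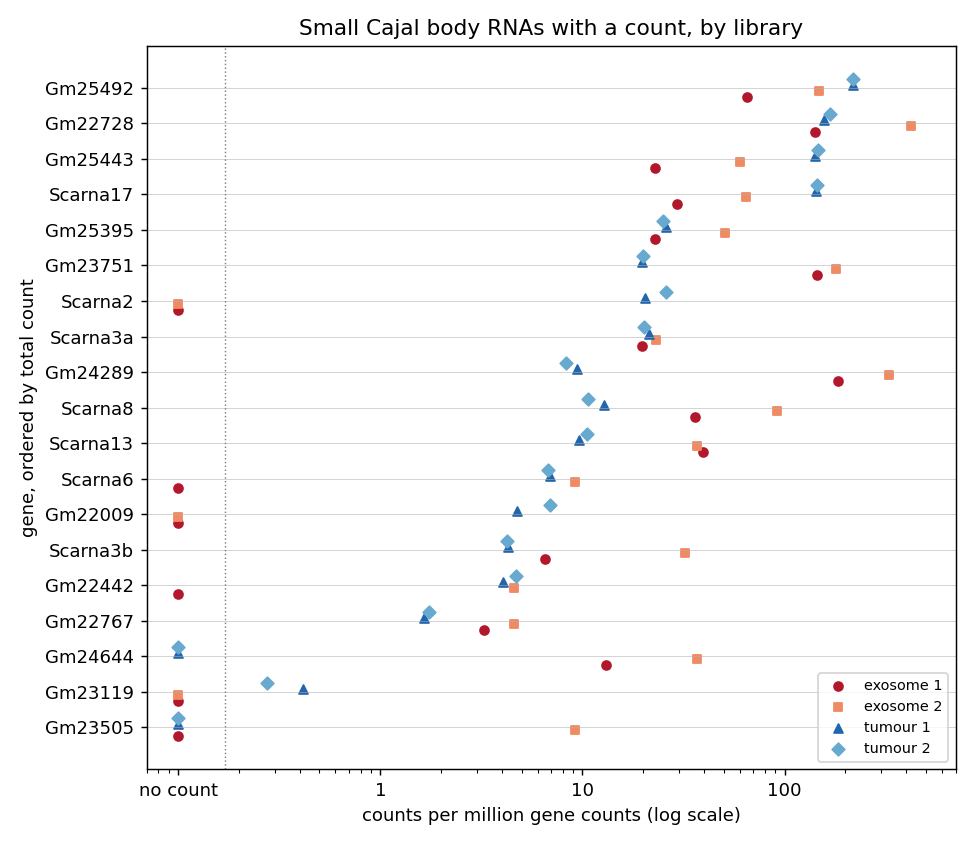
CPM (log scale) of the 19 small Cajal body RNAs with a count in each of the 4 libraries, ordered by total count; points left of the dotted line had no count. Gm24289, Gm23751, Scarna8, Scarna13, Scarna3b and Gm22767 have both exosome points to the right of both tumour points, Gm25492, Gm25443 and Scarna17 have them to the left, and Gm24644 and Gm23505 have counts in exosomes only.

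The make-up of the class can be read within each library and does not depend on scaling. In exosomes Gm24289 was 25.2% and 21.8% of all small Cajal body RNA counts, against 1.18% and 1.01% in tumour. Gm23751 was 19.8% and 12.0% in exosomes and 2.46% and 2.42% in tumour. Together they were 45.0% and 33.7% of the class in exosomes and 3.64% and 3.43% in tumour. In tumour 4 members, Gm25492, Gm22728, Scarna17 and Gm25443, made up 82.4% of the class in both libraries, and in exosomes 35.6% and 46.3%. Of these 4, Gm22728 alone had shares that overlapped between the groups, at 19.4% and 28.2% in exosomes and 19.7% and 20.3% in tumour. The copies Scarna17 and Gm25443 together were 35.5% and 35.4% of the class in tumour and 7.21% and 8.28% in exosomes. Shares of the class depend on how reads that match both copies were assigned. For every 100 counts of Gm25492, exosomes held 280 and 222 counts of Gm24289, and tumour 4.32 and 3.79.

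**Figure D4:**
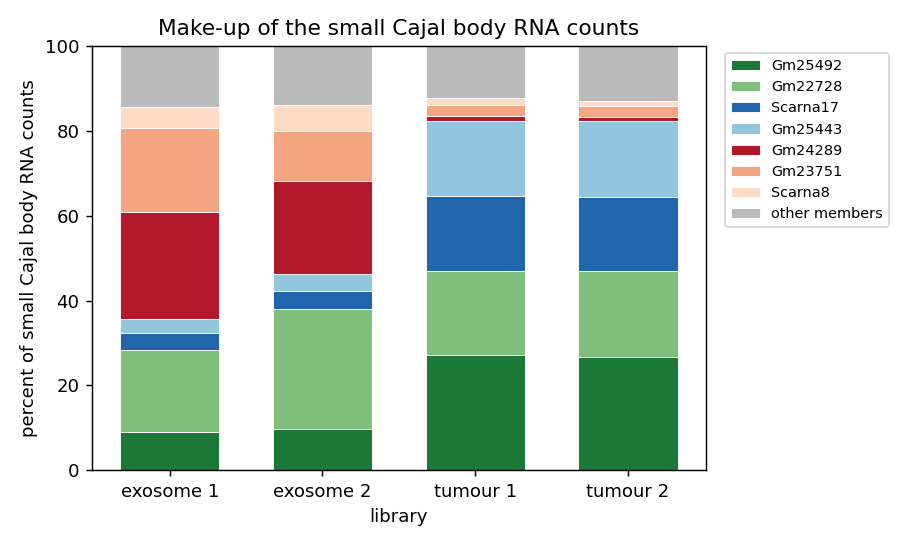
Percent of all small Cajal body RNA counts held by 7 members and by the rest together, in each library. Gm24289 and Gm23751 fill 45.0% and 33.7% of the exosome bars and 3.64% and 3.43% of the tumour bars; the tumour bars are alike, and the exosome bars rest on 222 and 326 counts.

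Per base of gene length (FPKM, deposited by the authors), the order of levels differed between the groups. In exosomes the highest mean FPKM was that of Gm22728 (1090 and 3283), followed by Gm24289 (1357 and 2421), Gm23751 (1058 and 1320) and Gm25492 (507 and 1142). Neighbours in that order overlapped in range, except that Gm24289 lay above Gm23751 in both libraries. In tumour the copies Gm25443 (1865 and 1931) and Scarna17 (1807 and 1824) were followed by Gm25492 (1689 and 1698) and Gm22728 (1221 and 1295). Neighbours did not overlap, and the next, Scarna3a (152 and 144), was far below. The copies cannot be told apart, so their order and their place above Gm25492 depend on how shared reads were assigned. The Scarna3a range overlapped that of Gm23751 (145 and 146). Of the 10 members with at least 5 counts in both exosome libraries, 9 had a higher CPM in exosome replicate 2 than in exosome replicate 1.

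Sequence elements were searched on the sense strand of each annotated RNA. Box C (TGATGA in the first 15 bases) was in 5 of the 51 members, or 9.80%, and in 65.3% of the 98 Snord and 0% of the 42 Snora genes. Box D (CTGA in the last 15 bases) was in 17.6% of members, 93.9% of Snord and 7.14% of Snora genes. ACA in the last 15 bases was in 74.5% of members, 12.2% of Snord and 95.2% of Snora genes. The letters TGAG, those of a common CAB box, occurred anywhere in 72.5% of members, 83.7% of Snord and 45.2% of Snora genes. Of the 19 members with a count 13 held TGAG, and Gm24289, Gm23751, Gm24644, Gm23505, Gm22442 and Scarna2 did not. TGAG can overlap box D, since CTGAG holds both.

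All 5 members with box C had counts, were tested and also held box D in the window (Gm25443, Scarna17, Gm25395, Scarna6 and Gm22009). In Gm25443 the CTGA ends 11 bases before the 3′ end, against 4 or 5 bases in the other 4. With TMM scaling, where 22.1% of all tested genes were lower, all 5 were lower, at log2 differences from -8.40 to -2.33, where the lowest is of a gene with no exosome count and is no bound. The 10 tested members with ACA and no box C ran from -3.91 to 2.00, with 1 higher, 4 lower and 5 not called. With library totals, where 63.8% of all tested genes were higher and 11.5% lower, the box C members were 3 lower and 2 not called, and the ACA members 6 higher, 1 lower and 3 not called. Of the box C members, Scarna6 and Gm22009 passed the filter through tumour alone. Scarna2 held no box C in the window. Box C members share loci and sequence (a copied pair and a host gene), so they are not independent of each other, and the difference between the kinds was not tested. Among comparison classes with TMM scaling, Snord genes were lower in 46 of 46 tested (median -9.89) and Snora genes in 11 of 14, with 1 higher (median -3.87), beside 10 of 16 lower and 1 higher for the Cajal body class (median -2.54). With library totals 44 Snord genes were lower and 1 higher (median -7.15), and 4 Snora genes were lower and 2 higher (median -1.14). The group through which each Snord and Snora gene passed the filter is not given here. Genes high in tumour alone can pass there, so these calls and medians are descriptions. Fitted values of genes with no exosome count are no bounds.

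Host genes had few counts. Of the 19 members with a count, 14 lie in an intron of a same-strand gene, in 13 host genes. Only 4 hosts were tested. Chd4, host of Gm23751 and a chromatin remodeller, had 6 and 6 counts in exosomes and 42 and 43 in tumour (log2 difference -0.02, SE 0.44, edgeR adjusted p = 0.995 with TMM scaling, and 2.76 with library totals), beside 0.22 and 3.01 for its guest. Chd3, host of Gm22442, had 2 and 2 against 17 and 8 (0.19, SE 0.65, edgeR adjusted p = 0.915), beside -3.88 for its guest. Kpna4, host of Gm22009, had 2 and 0 against 40 and 25 (-2.16, SE 0.82, edgeR adjusted p = 0.0788, and 0.58 with library totals). Atg16l1 had 3 and 3 counts in exosomes and 5 and 5 in tumour and was called higher (2.04, SE 0.53, edgeR adjusted p = 0.0293), beside its guests Gm25395 and Scarna6, which were called lower. Atg16l1 and Chd3 passed the filter through exosomes alone, and Kpna4 and Scarna6 through tumour alone. Tipin, host of Gm24289, had 4 and 0 counts in exosomes and 0 and 2 in tumour and was under the filter. Whether counts in a host came from exons or introns was not tested.

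Genes for the proteins that build and place these RNAs had few counts. Of the 28 protein genes listed for H/ACA and C/D particles, Cajal bodies, import, assembly and end processing, 26 had a count, 11 had one in an exosome library, and none exceeded 5 counts there. The 3 that were tested were Nop56 and Nop58, core proteins of C/D particles, and Nolc1, a Cajal body and nucleolar phosphoprotein. Nolc1 had 5 and 2 counts in exosomes and 7 and 3 in tumour and was higher (log2 difference 2.27, SE 0.59, edgeR adjusted p = 0.0185), having passed the filter through exosomes alone, as Nop56 and Nop58 did. Nop56 (-1.80, SE 0.79) and Nop58 (-0.55, SE 0.74) were not called (edgeR adjusted p = 0.125 and 0.749), nor were they with library totals, where their differences were 0.94 and 2.19. Coil, which encodes the Cajal body scaffold coilin, had 0 and 0 counts in exosomes and 3 and 0 in tumour, and Wrap53 had 0 and 1 against 3 and 2.

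Terc, the telomerase RNA, is an H/ACA RNA that also passes through Cajal bodies. It had 173 and 217 counts in exosomes and 73 and 53 in tumour, and was higher under both scalings (log2 difference 4.47, SE 0.22, edgeR adjusted p = 1.33e-06 with TMM scaling, and 7.28 with library totals). Among the spliceosomal targets with an Rnu symbol, 5 of the 7 tested were higher with TMM scaling, where 16.0% of all tested genes were higher and 22.1% lower. These were Rnu1b6, Rnu1b2, Rnu1b1, Rnu1a1 and Rnu2-10, at log2 differences from 4.93 to 7.32. Rnu5g was lower under both (22 and 17 counts against 7723 and 5472, -5.57, SE 0.18, edgeR adjusted p = 1.68e-07, and -2.79 with library totals). Rnu12, of the minor spliceosome, was not called with TMM scaling (-0.26, SE 0.19, edgeR adjusted p = 0.373), where its difference with library totals was 2.52. The Rnu1 genes are near copies of each other, so their counts are uncertain one by one.

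Scarna9, annotated with the biotype snoRNA and so outside the rule, had 0 and 0 counts in exosomes and 158 and 107 in tumour (edgeR adjusted p = 0.000268), and Scarna10 had no count. The microRNA genes Mir1843b, Mir1843a and Mir3069, which overlap Scarna3a, Scarna3b and Scarna13, had no count in any library.

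The exosome libraries held 305751 and 217201 counts and the tumour libraries 14543691 and 10849811, so 1 count was 3.27 or 4.60 CPM in exosomes. Only 5 of the 16 tested members had at least 10 counts in both exosome libraries, and counts came from amplified reads without molecular identifiers, so intervals and floors cover counting error only. Markers were sparse: 5 exosome protein genes summed to 3 and 2 counts in exosomes and 33 and 28 in tumour, or 9.81 and 9.21 against 2.27 and 2.58 CPM, with 3 of 5 at 0 in exosomes. The 4 epithelial genes summed to 1 and 1 counts against 13 and 4, or 3.27 and 4.60 against 0.894 and 0.369 CPM, with Epcam and Cdh1 at 0 in every library. The 4 haemoglobin genes summed to 82 and 102 counts in exosomes and 1642 and 873 in tumour, or 268 and 470 against 113 and 80.5 CPM. With TMM scaling none of the 4 was higher in exosomes. Hba-a1 and Hba-a2 were called lower (-1.08 and -1.04, edgeR adjusted p = 0.00928 for each). Hbb-bs and Hbb-bt were not called (-0.85 and -0.72, edgeR adjusted p = 0.0708 and 0.0982). In CPM the 4 leukocyte genes summed to 3.27 and 41.4 against 3.78 and 2.77, the 2 endothelial genes to 9.81 and 18.4 against 0.825 and 0.645, and the 2 fibroblast genes to 13.1 and 23.0 against 0.825 and 0.369. The part of other cell types, of RNA content per cell and of depth in the results above was not tested, and in bulk libraries fewer cells of a type and less RNA per cell cannot be told apart.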

How the data were processed

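RNA was ligated to adaptors, amplified, size-selected on a gel and sequenced, per the labels' protocols. Per the file headers, each of the 4 libraries has 1 count column and 1 FPKM column. The counts deposited are raw whole numbers. The authors' FPKM were scaled to gene length and library total, as each FPKM equalled the count so divided within 0.0806%. TopHat2 2.0.9, Cufflinks 2.1.1, Cuffdiff and GRCm38.p4 are named, per the submitters' processing notes. For the counts, the tool, annotation, strand setting and handling of multiply matching reads were not given in the sources used here.

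Biotype, position and sequence came from GENCODE M21, which holds 46488 of the 47069 gene IDs. The test was edgeR 4.0.16 (R 4.3.3): TMM scaling, filterByExpr (1.79 CPM in at least 2 libraries, total of at least 15), the two-sided quasi-likelihood test on group alone, and Benjamini-Hochberg adjustment over 1442 genes at 0.05. The SE is the difference divided by the square root of the F statistic. TMM factors were 2.41 and 2.93 in exosomes and 0.388 and 0.365 in tumour. Where a group had no count, folds were taken against 3 counts per library, with the counts of the other group as observed. Intervals are Clopper-Pearson. Identity came from blastn 2.17.0. The code was tested on simulated data.

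Every member with a count was to be named or counted, and each tested gene of the pathway list named. Coil, Wrap53, Rnu genes, Scarna9 and hosts were named beside them. Members and lists were chosen with earlier results of these data known. Alternatives were DESeq2 1.42.0, other scalings and filters, limma 3.58.1 on log2 FPKM, a replicate block, left-out libraries, summed copies, no small nucleolar RNA genes, and thinning.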

Additional observations from a re-analysis of the deposited data

How the results depend on the processing

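With DESeq2, TMMwsp scaling, a replicate block, or small nucleolar RNA genes left out, all 16 tested members kept their direction and their side of the threshold, and with near-identical copies summed all 15 that have a value did. Over all genes, the 230 higher and 318 lower calls became 920 and 166 with library totals, 830 and 171 with limma on log2(FPKM + 1), and 977 and 161 with limma on log2(FPKM + 0.1). Lower calls were 610 with no filter, 185 with small nucleolar RNA genes left out (684 genes tested) and 121 with tumour libraries thinned (311 genes tested). Leaving out each library gave 82 to 189 higher and 190 to 319 lower calls. Among members, 6 were higher and 5 lower with library totals, and 4 and 4 with limma under each pseudocount. With no filter 2 members were higher and 15 lower of 19, beside 215 higher and 610 lower of 14421 genes, whose median log2 difference was -1.86. With at least 10 counts in 2 libraries, 2 members were higher and 10 lower of 16, beside 193 and 297 of 1152 genes. With thinning 2 members were higher and 3 lower of the 6 with a value, beside 168 and 121 of 311 genes. Leaving out each library gave 0 to 1 higher and 8 to 12 lower members. Without a tumour library 394 or 397 genes and 9 members were tested, since the filter then rests on the shallow exosome libraries and the lone tumour library is assumed to vary like the others. With the 1442 genes kept, chosen after seeing the data, all 16 calls stayed without either tumour library.

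Log2 differences that changed sign against TMM scaling were, with library totals, limma on log2(FPKM + 1) and limma on log2(FPKM + 0.1), 0.75, 0.59 and 0.59 for Gm22728, 0.45, 0.42 and 0.42 for Gm25395, 0.024, 0.038 and 0.039 for Scarna3a, 2.37, 2.30 and 2.31 for Scarna8, 1.92, 1.89 and 1.92 for Scarna13, 2.03, 1.74 and 1.77 for Scarna3b, and 1.17, 1.12 and 1.18 for Gm22767. The medians of all tested genes were 2.75, 0.75 and 2.02 in these settings and 0.02 with TMM scaling. Gm23751 was -0.96 with no filter, and from -2.06 to 0.30 over the left-out libraries. Scarna8 was 0.016 with at least 10 counts in 2 libraries, from -2.74 to 0.10 over the left-out libraries, and 0.043 without exosome replicate 1 with the 1442 genes kept. Gm24289 ran from -0.29 to 2.32 and Scarna3b from -1.99 to 0.042 over the left-out libraries. The cause was not tested.

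The members' mean share was 3.56% of protein-coding counts in exosomes and 5.18% in tumour, and 0.112% and 1.33% of counts without small nucleolar RNA genes. The protein-coding counts include those of Snrpb given above. With both denominators the groups separated, where over all counts they overlapped. In tumour it was 0.0667% of all counts without Gm25443, an alternative chosen after seeing the data. It was 0.0726% to 0.150% in exosomes and 0.0801% to 0.0822% in tumour over single libraries. Same-numbered libraries deviated from their group means with a correlation of 0.123 over 265 genes, the numbers are not stated to pair the libraries, and the replicate block gave 1 higher and 10 lower members and 244 higher and 345 lower genes. Depth limits exosome values: a single count there was 3.27 or 4.60 CPM.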
